A study of Homo sapiens with 9 samples.

Results

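The T-lineage commitment transcription factors BCL11B, BCL11A, GATA3, TCF7, LEF1, TOX, SATB1, IKZF1, IKZF2 and MYB were followed by name in ALL-SIL, a human T-cell acute lymphoblastic leukaemia line in which the homeobox factor TLX1 is expressed from a rearranged locus. These 10 genes were taken from the 58096 gene IDs counted in each library, and 9 of them were among the 16072 genes with enough reads to be tested. BCL11A was the exception. Cells were electroporated with siRNA s46 or siRNA s47, both directed against TLX1, or with a scrambled siRNA, and total RNA was sequenced after 24 h. Each of these 3 groups had 3 libraries, so there were 9 in all. The sample titles give 400 nM for the scrambled siRNA and no dose for s46 or s47. All groups are the same cell line, all were electroporated, and TLX1 RNA was reduced in the siRNA groups, not absent. Whether replicates are separate cultures is not stated in the labels, and a p-value here reflects only how far these libraries spread, which may be technical variation.

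These factors act in sequence as thymic progenitors become T cells, as worked out mainly in mice. TCF7 and GATA3 are induced by Notch signalling and open the T-cell programme, BCL11B then closes the progenitor and natural killer programmes, and IKZF1 limits the response to Notch. LEF1 shares its DNA-binding domain with TCF7, BCL11A is the relative of BCL11B used by B cells and progenitors, and IKZF2 (Helios) is the relative of IKZF1 found in T cells. MYB sustains the proliferation and survival of immature thymocytes and is an oncogene in T-cell leukaemia, TOX is needed for CD4 lineage development, and SATB1 arranges chromatin loops in thymocytes.

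The libraries held 21134650 to 33393740 sense gene reads. Scrambled replicate 1 stood apart. Multimapping reads made up 14.4% of this library and 6.36% to 7.34% of each of the others. The share of reads in genes was 39.1% here and 51.4% to 58.2% elsewhere. Across genes it correlated with the other scrambled libraries at 0.967 and 0.975, while all other pairs within a group had r between 0.985 and 0.990. Of the 10 factors, 5 had their highest value in this library (GATA3, TCF7, TOX, IKZF1 and BCL11A) and 1 (MYB) had its lowest. BCL11A had only 10 reads in it. The share of all tested genes with their highest value in this library was not counted, so the 5 cannot be set against it. Its part in the results was not tested beyond the values given without it. The targeted gene set the scale of the experiment. TLX1 stood at 63.7, 87.3 and 78.7 CPM (counts scaled to library size, after TMM adjustment) in the s46 libraries, at 63.5, 73.7 and 75.0 CPM in the s47 libraries and at 198.1, 188.2 and 171.3 CPM in the scrambled ones (log2 fold change of both siRNAs against scrambled -1.34 ± 0.11 SE, edgeR adjusted p 0.000394). All 8 T-cell markers (CD3D, CD3E, CD3G, CD247, CD2, CD5, CD7 and LCK) were tested genes, and their summed level was 1397 to 1596 CPM with s46, 1411 to 1500 CPM with s47 and 1336 to 1500 CPM with scrambled siRNA. The sum does not show the single markers, and CD2 was low, at 1.34 to 5.75 CPM. At an unadjusted edgeR p under 0.05 for both siRNAs, 2 markers were higher (CD3D and CD2) and 2 lower (CD3E and CD7). The share of all tested genes was 17.8%, and no marker passed after adjustment. In bulk RNA, fewer cells of a type and less RNA per cell cannot be told apart.

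MYB and IKZF2 were the members whose values did not overlap between all siRNA libraries and all scrambled libraries, so their start regions are shown. MYB (ENSG00000118513.18) lies on chromosome 6 (135181315 to 135219173, plus strand, GRCh38) and IKZF2 (ENSG00000030419.16) on chromosome 2 (212999691 to 213152427, minus strand). The 300-base windows around their starts, from the RefSeq promoter table on GRCh38.p14, were chr6:135181058-135181357 (plus strand) and chr2:213152407-213152706 (minus strand), and capitals mark the RUNX word TGTGGT.
MYB: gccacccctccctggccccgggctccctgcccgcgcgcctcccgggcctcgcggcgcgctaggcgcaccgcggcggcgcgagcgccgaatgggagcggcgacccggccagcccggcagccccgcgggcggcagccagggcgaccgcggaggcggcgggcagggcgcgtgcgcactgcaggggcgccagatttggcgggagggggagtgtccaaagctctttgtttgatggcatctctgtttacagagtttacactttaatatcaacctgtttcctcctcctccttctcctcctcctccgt
IKZF2: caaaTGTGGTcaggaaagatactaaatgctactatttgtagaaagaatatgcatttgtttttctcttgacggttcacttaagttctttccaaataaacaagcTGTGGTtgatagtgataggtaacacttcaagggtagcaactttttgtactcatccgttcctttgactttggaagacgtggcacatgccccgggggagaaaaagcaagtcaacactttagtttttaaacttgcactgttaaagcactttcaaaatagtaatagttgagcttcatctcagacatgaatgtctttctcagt
The MYB window had a GC content of 71% and the IKZF2 window 37.3%. For 9 of the 10 factors, the window nearest the gene start was searched for short core words of 5 factor families, on both strands. The RUNX family was represented by TGTGGT, TCF and LEF proteins by ATCAAAG, zinc-finger factors of the GATA type by AGATAA, homeodomain proteins by TAATTG and ETS proteins by CCGGAAG, and none of these words contains another. The RUNX word occurred 2 times in the IKZF2 window and 1 time in the LEF1 window, which lies 2655 bases from the annotated gene start, and 13.1% of all 35116 windows held it. The ETS word occurred 1 time each in the GATA3 and TCF7 windows, and 10.3% of all windows held it. The TCF/LEF, GATA and homeodomain words were in none of the 9 windows, against 2.62%, 10.3% and 7.38% of all windows. The nearest windows of MYB, BCL11B, BCL11A, IKZF1 and SATB1 held none of the searched words. Some genes have further windows, and a searched word was in 2 of 3 IKZF1 windows, 1 of 5 BCL11A windows and 1 of 4 SATB1 windows. The nearest windows of BCL11A, TCF7, BCL11B and IKZF1 also lay 1230, 902, 673 and 648 bases from the annotated gene start. A match is a description of these letters, not a binding site.

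Levels can be compared between genes only per length, here as CPM per kilobase of annotated exon. LEF1 had the highest mean level over the 9 libraries, 123.2 CPM per kilobase (98.1st percentile of the 11164 tested protein-coding genes), and MYB followed at 102.1. BCL11B (45.7 CPM per kilobase), IKZF2 (36.7), IKZF1 (30.6), TCF7 (29.6) and TOX (27.3) formed the middle of the order. GATA3 had 13.2 CPM per kilobase, and SATB1, at 8.33, was just above the median of those protein-coding genes, 7.56. LEF1 was above MYB in 9 of 9 libraries, though their ranges overlapped. MYB was above BCL11B in 9 of 9 libraries and the ranges of their 9 values did not overlap. TOX was above GATA3, and GATA3 above SATB1, in 9 of 9 libraries, with overlapping ranges in both pairs. BCL11B and IKZF2, IKZF2 and IKZF1, IKZF1 and TCF7, and TCF7 and TOX kept their order in 7, 7, 6 and 7 of 9 libraries. These counts take the 3 groups together. BCL11B was above IKZF2 in every siRNA library (41.1 to 53.9 against 27.1 to 35.4 CPM per kilobase) and below it in scrambled replicates 2 and 3. TCF7 was likewise above TOX in every siRNA library (28.1 to 33.9 against 23.6 to 26.6) and below it in scrambled replicates 2 and 3. Order among these 5 factors also depended on the length used. With the longest annotated transcript as the length, TCF7 had 55.8 CPM per kilobase and IKZF1 had 53.1, above IKZF2 (48.0) and BCL11B (47.2). By the mean over the 9 libraries LEF1, MYB, TOX, GATA3 and SATB1 kept their places under both lengths. With the longest transcript, however, GATA3 (14.5) and SATB1 (14.3) were nearly equal, and the GATA3 mean includes its high value in scrambled replicate 1. The order of these 2 genes in each library was counted with the exon length only and may differ with the other.

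**Figure D1:**
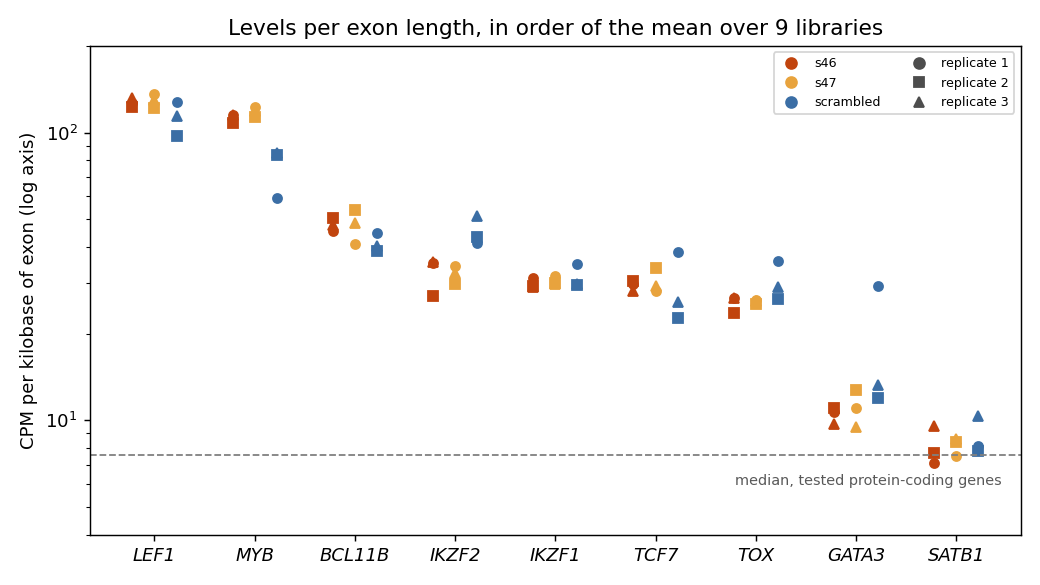
Level of the 9 tested factors in each library, as CPM per kilobase of exon on a log axis, with s46 left, s47 in the middle and scrambled right for each gene and the replicate number as the marker shape. LEF1 and MYB lie above the other factors, and scrambled replicate 1 of GATA3, at 29.3 CPM per kilobase, lies away from its 8 other values of 9.44 to 13.3; the dashed line is the median of tested protein-coding genes.

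When TLX1 was reduced by both siRNAs, none of the 9 tested commitment factors passed the edgeR test across all genes, while 0.566% of tested genes did. At an unadjusted p under 0.05 there were 4 of 9 factors, MYB higher and IKZF2, GATA3 and TOX lower, against 17.8% of all tested genes. By range alone 2 of 9 factors did not overlap between all siRNA and all scrambled libraries, MYB above and IKZF2 below, against 8.12% of tested genes. The median log2 fold change of the factors was -0.06, and that of all tested genes was -0.03. DESeq2 called 3 of the 9 (MYB higher, IKZF2 and GATA3 lower) and limma-voom called 1 (MYB), where these tools called 2.84% and 0.61% of all genes.

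**Figure D2:**
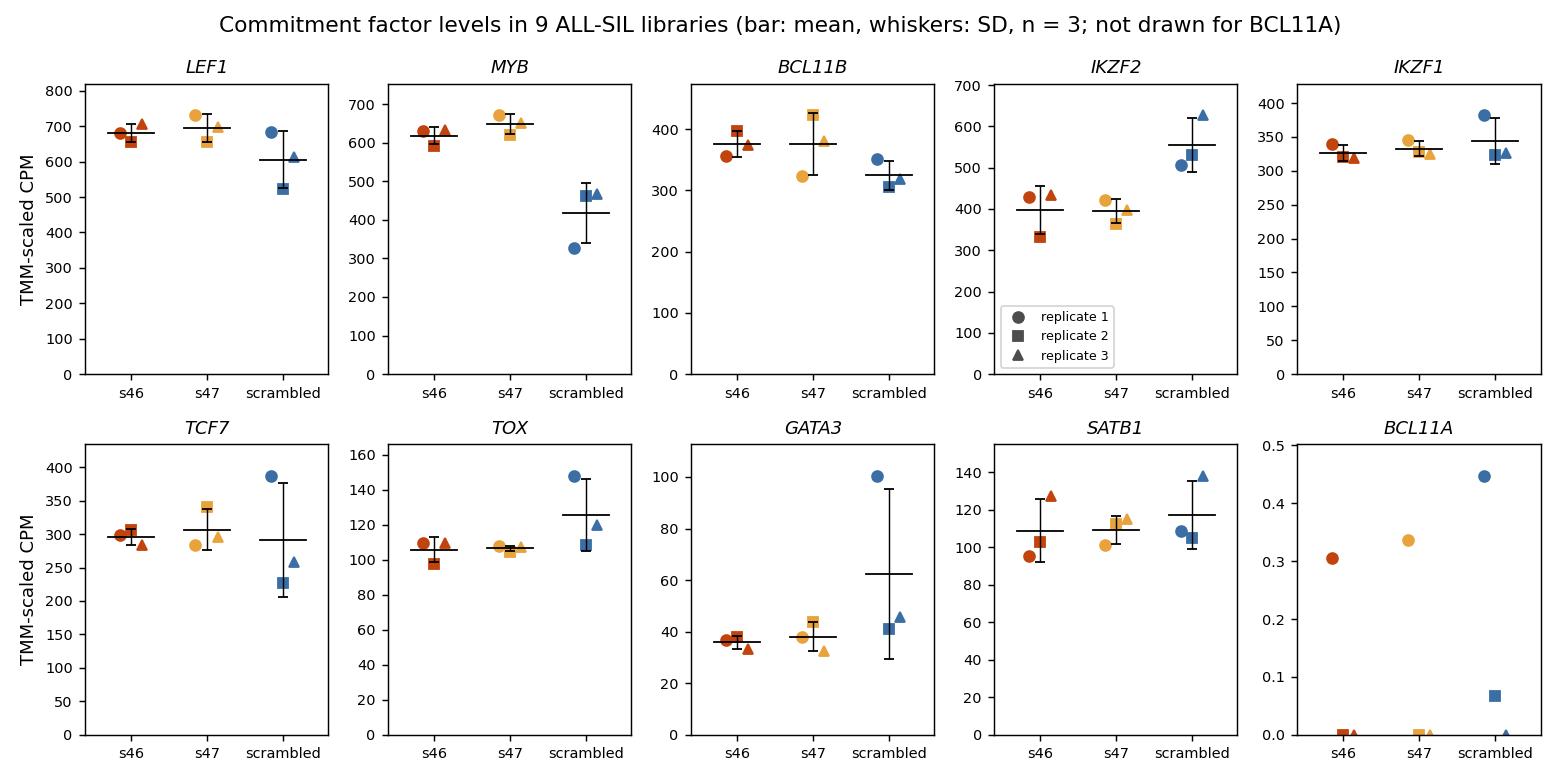
TMM-scaled CPM of each factor in the s46, s47 and scrambled libraries; points are libraries, marker shapes the replicate numbers, bars the group mean and whiskers the SD (n = 3, not drawn for BCL11A, which has 5 libraries at 0). The 6 siRNA points of MYB (592 to 672 CPM) lie above its scrambled points (326 to 466 CPM), and those of IKZF2 (332 to 433 CPM) lie below its scrambled points (505 to 628 CPM).

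MYB stood nearest to the threshold of the 9 factors. It had 630, 592 and 632 CPM in the s46 libraries, 672, 620 and 651 CPM in the s47 libraries, and 326, 461 and 466 CPM in the scrambled libraries. Every siRNA library was above every scrambled library, and the lowest value was that of scrambled replicate 1. The log2 fold change of both siRNAs against scrambled was 0.60 ± 0.13 SE (95% interval 0.33 to 0.87, 1.51-fold, edgeR adjusted p 0.0566), rank 108 of 16072 genes by p. Without scrambled replicate 1 it was 0.45 with an edgeR adjusted p of 0.0364. Without the 3 libraries of number 1 it was 0.43 with an edgeR adjusted p of 0.1205, which did not pass. Over the 18 alternatives the log2 fold change was 0.43 to 0.69 and the adjusted p 0.000723 to 0.149. The tested genes whose values ran most like MYB over the 9 libraries were MTF2, PTAR1 and SLAIN1. The root mean square difference of their log2 CPM from MYB, each gene centred on its own mean, was 0.054, 0.057 and 0.062, where the median of all tested genes was 0.421. These genes were picked for the smallest differences among all tested genes, so their place below that median was fixed by the choice.

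The paralogs of MYB did not share its values. MYBL1, best known from male meiosis, had 115.2, 82.1 and 105.7 CPM with s46, 103.0, 87.1 and 97.0 CPM with s47, and 153.5, 122.8 and 152.4 CPM with scrambled siRNA. Its 6 siRNA values were all below its scrambled values (log2 fold change -0.54 ± 0.12 SE, edgeR adjusted p 0.0785). MYBL2, which drives cell-cycle genes in dividing cells, ranged from 49.6 to 76.0 CPM with s46, 50.8 to 81.4 CPM with s47 and 50.6 to 112.9 CPM with scrambled siRNA, and its groups overlapped (log2 fold change -0.24 ± 0.25 SE, edgeR adjusted p 0.621).

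IKZF2 was the other factor whose groups did not overlap. Its levels were 430, 332 and 433 CPM with s46, 421, 364 and 398 CPM with s47, and 505, 530 and 628 CPM with scrambled siRNA. The log2 fold change was -0.48 ± 0.12 SE (95% interval -0.74 to -0.23, 1.40-fold lower with the siRNAs, edgeR adjusted p 0.0992). It was -0.55 without scrambled replicate 1, with an edgeR adjusted p of 0.0466, and -0.60 (0.0786) without the 3 libraries of number 1. Over the 18 alternatives it was -0.60 to -0.38, with an adjusted p of 0.0175 to 0.245. IKZF1 (Ikaros; chromosome 7, 50304068 to 50405101, plus strand), by contrast, had 340, 321 and 319 CPM with s46, 346, 327 and 325 CPM with s47, and 383, 323 and 326 CPM with scrambled siRNA. All its groups overlapped, and its spread within groups (SD of log2 CPM 0.089) was the smallest of the 9 factors. Every tested factor except GATA3 was below the median spread of all tested genes (0.253). That median takes in genes of every tested level, and genes of like level were not compared. The log2 fold change of IKZF1 was -0.06 ± 0.10 SE (95% interval -0.27 to 0.15, edgeR adjusted p 0.759). Per kilobase, the ratio of IKZF2 to IKZF1 averaged 1.09 ± 0.15 with s46, 1.06 ± 0.056 with s47 and 1.45 ± 0.27 with scrambled siRNA (SD, n = 3 each). The scrambled ratios were 1.18, 1.46 and 1.72, and the lowest of them, in replicate 1, lay within the s46 range of 0.923 to 1.21.

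GATA3 (chromosome 10, 8045378 to 8075203, plus strand) had the largest fitted difference of the 9 factors and rested on 1 library. It had 36.6, 38.0 and 33.2 CPM with s46, 37.9, 43.6 and 32.4 CPM with s47, and 100.6, 41.0 and 45.5 CPM with scrambled siRNA. Only scrambled replicate 1 was far from the other 8 libraries, and s47 replicate 2 was above scrambled replicate 2. The log2 fold change was -0.75 ± 0.24 SE (95% interval -1.27 to -0.23, edgeR adjusted p 0.193). Without scrambled replicate 1 it was -0.23 (edgeR adjusted p 0.648), where over all 18 alternatives the value was -0.97 to -0.23 and the adjusted p 4.6e-05 to 0.856. The SD of its log2 CPM within groups was 0.43, the largest of the 9.

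BCL11B, the factor that seals T-lineage commitment and a tumour suppressor in T-cell leukaemia (chromosome 14, 99169287 to 99271524, minus strand), had 356, 397 and 374 CPM with s46, 323, 424 and 381 CPM with s47, and 351, 305 and 318 CPM with scrambled siRNA. The s46 values lay above all scrambled values, while s47 replicate 1 lay among them. Its log2 fold change for both siRNAs was 0.21 ± 0.11 SE (95% interval -0.03 to 0.45, edgeR adjusted p 0.328). Leaving out the 3 libraries numbered 1 gave 0.34. BCL11A (chromosome 2, 60450520 to 60555154, minus strand) was near the detection limit, with 8, 0 and 0 reads with s46, 9, 0 and 0 reads with s47, and 10, 2 and 0 reads with scrambled siRNA. Of its 29 reads, 27 came from the libraries numbered 1, and 5 libraries were at 0. Its highest level was 0.448 CPM, while a count of 0 allows up to 3 reads, or 0.0905 to 0.134 CPM by library (counting error only), so no difference between the siRNAs was detectable at this depth. The libraries of number 1 shared other such genes. With at least 5 reads in each of the 3 libraries of one number and at most 2 in each of the other 6, 27 genes marked number 1, while 2 marked number 2 and 1 marked number 3. Among the 27, chosen after their values were seen, RORB had 39, 30 and 41 reads in the s46, s47 and scrambled libraries of number 1 and 0 in the other 6. The source of these reads was not tested.

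TCF7 and LEF1, the HMG-box partners of beta-catenin, differed in level but gave no call. LEF1 (chromosome 4, 108047545 to 108168956, minus strand) had 681, 655 and 707 CPM with s46, 732, 655 and 697 CPM with s47, and 684, 521 and 612 CPM with scrambled siRNA. Its scrambled replicate 1 lay within the siRNA range, and its log2 fold change was 0.18 ± 0.11 SE (95% interval -0.06 to 0.42, edgeR adjusted p 0.392). Leaving out scrambled replicate 1 gave 0.28, and leaving out scrambled replicate 2 gave 0.091. TCF7 (chromosome 5, 134114711 to 134151865, plus strand) had 299, 307 and 283 CPM with s46, 283, 341 and 295 CPM with s47, and 387, 227 and 258 CPM with scrambled siRNA. Its scrambled values lay on both sides of all siRNA values, so the fitted log2 fold change was 0.05 ± 0.15 SE (95% interval -0.27 to 0.37, edgeR adjusted p 0.881). Without scrambled replicate 1 the value was 0.31 (edgeR adjusted p 0.285), where over its 18 alternatives the adjusted p was 0.285 to 0.987, and its sign turned under 3 of them, given in the closing section. LEF1 was above TCF7 in every library per kilobase of exon, with ratios of 3.60 to 4.85 in the siRNA libraries and 3.32 to 4.44 in the scrambled ones.

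TOX, an HMG-box factor on chromosome 8, had 109.7, 97.4 and 109.8 CPM with s46, 107.8, 104.7 and 107.1 CPM with s47, and 148.2, 108.7 and 119.8 CPM with scrambled siRNA. The s47 libraries were all below the scrambled ones, and the s46 libraries overlapped them at scrambled replicate 2. The log2 fold change was -0.24 ± 0.11 SE (95% interval -0.48 to -0.01, edgeR adjusted p 0.274), and without scrambled replicate 1 it was -0.11. SATB1 (chromosome 3, 18345387 to 18445588, minus strand) had 95.5, 103.0 and 127.6 CPM with s46, 100.99, 112.2 and 114.9 CPM with s47, and 108.9, 104.7 and 138.2 CPM with scrambled siRNA. All its groups overlapped (log2 fold change -0.11 ± 0.12 SE, 95% interval -0.37 to 0.16, edgeR adjusted p 0.666).

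**Figure D3:**
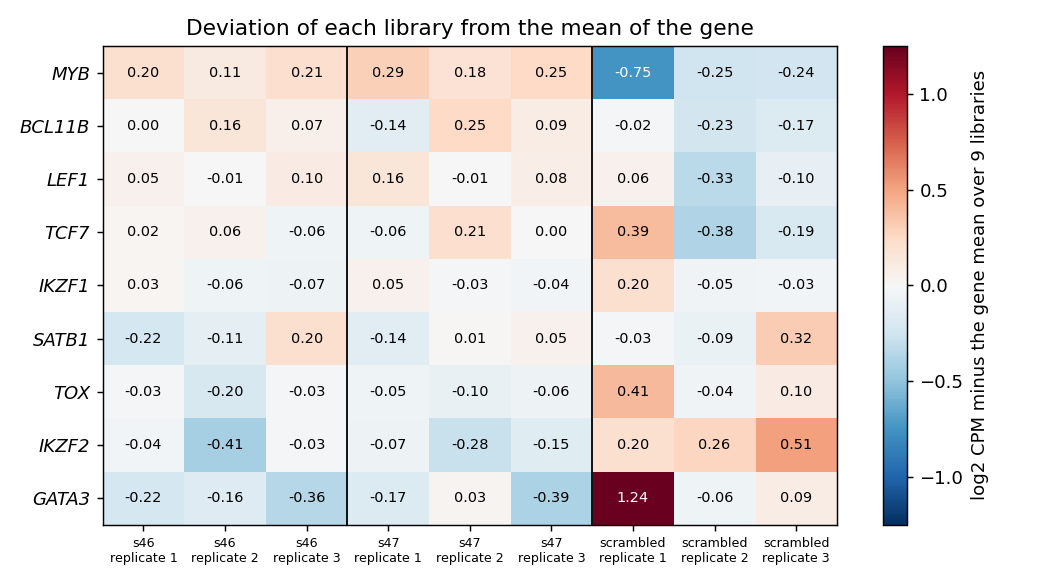
Log2 CPM of each tested factor in each library minus the mean of that gene over the 9 libraries, with red above and blue below the mean and black lines between s46, s47 and scrambled. Scrambled replicate 1 holds the extremes of GATA3 (1.24) and MYB (-0.75), and all 3 scrambled libraries are below the mean for MYB and above it for IKZF2.

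The siRNAs were also taken singly. Both share the same scrambled libraries, so their values stand side by side and are not separate evidence. With s46, 0 of 9 factors passed the edgeR test (0.174% of all genes did), 3 had an unadjusted p under 0.05 (11.9% of all genes), and the ranges of 4 did not overlap scrambled, MYB and BCL11B above, IKZF2 and GATA3 below (14.7% of all genes). With the replicate number as a block, 0 of 9 still passed with s46, where all genes called were 74 with the block and 28 without it. With s47, 0 of 9 passed (0.33% of all genes), 3 had an unadjusted p under 0.05 (12.3%), and the ranges of 3 did not overlap, MYB above, IKZF2 and TOX below (14.9%). For MYB the log2 fold change was 0.57 ± 0.14 SE with s46 and 0.63 ± 0.14 SE with s47 (edgeR adjusted p 0.183 and 0.113). For IKZF2 it was -0.48 ± 0.14 SE with s46 and -0.49 ± 0.14 SE with s47 (0.292 and 0.262), and for GATA3 it was -0.79 ± 0.28 SE and -0.71 ± 0.28 SE (0.403 and 0.387). BCL11B had 0.21 with each siRNA.

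Set against each other, s46 and s47 gave log2 differences between -0.08 (GATA3) and 0.01 (IKZF2) for the 9 factors. None passed the edgeR test (0% of all genes did), none had an unadjusted p under 0.05 (0.703% of all genes), and none had ranges that did not overlap (5.08% of all genes). The 95% interval of the s46 minus s47 difference was -0.37 to 0.24 for MYB, -0.29 to 0.32 for IKZF2, -0.28 to 0.28 for BCL11B and -0.70 to 0.54 for GATA3, so differences up to these sizes are within the measurement.

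**Figure D4:**
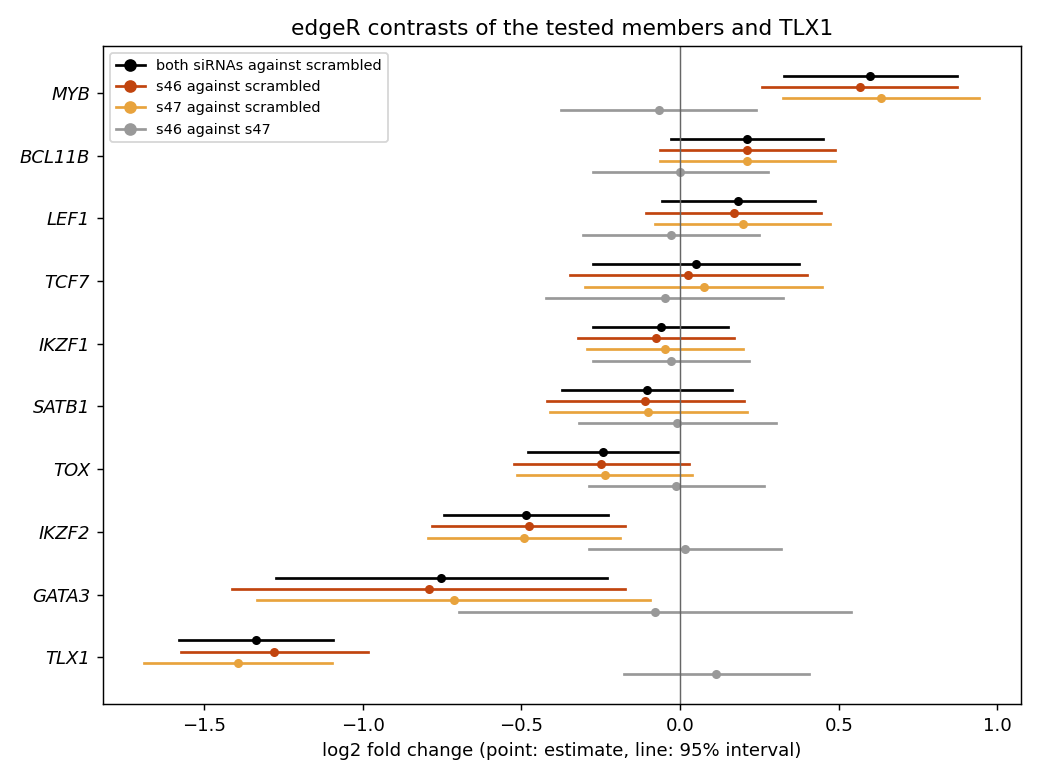
Log2 fold changes (points) and 95% intervals (lines) from edgeR for the 9 tested factors and TLX1 in the 4 comparisons. Intervals of MYB, IKZF2, GATA3 and TOX for both siRNAs against scrambled do not reach 0 before adjustment, that of TLX1 lies at -1.58 to -1.09, and the grey intervals of s46 against s47 all cross 0.

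Choices in processing moved MYB, IKZF2 and GATA3 across the threshold. DESeq2 gave MYB an adjusted p of 0.000723, IKZF2 0.0175 and GATA3 0.0477, and without a filter on low counts edgeR gave 0.000906, 0.0215 and 4.6e-05. With the replicate number as a block in the edgeR fit, MYB (adjusted p 0.0449) and IKZF2 (0.0472) passed for both siRNAs and GATA3 (0.148) did not. The directions of these factors were the same in all 18 alternatives.

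**Figure D5:**
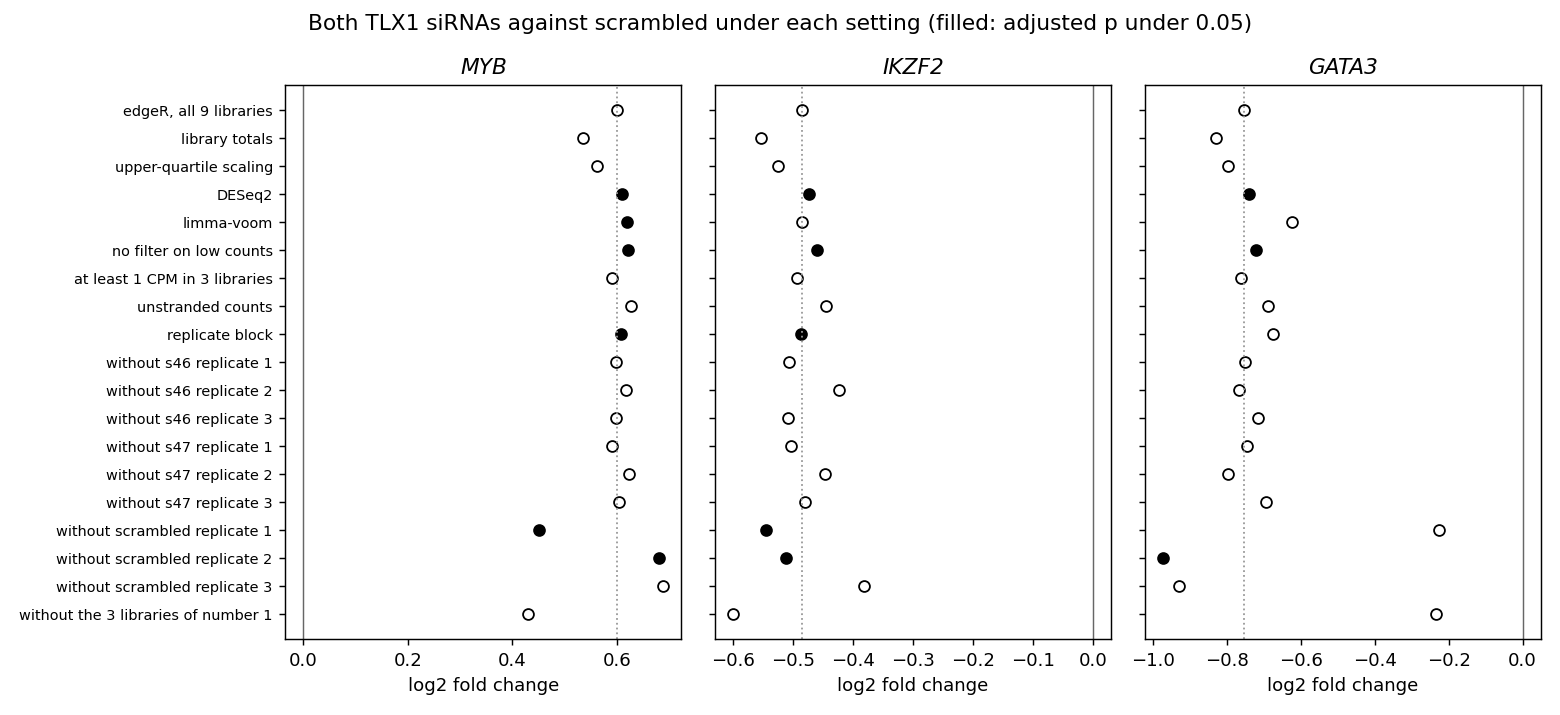
Log2 fold change of both siRNAs against scrambled for MYB, IKZF2 and GATA3 under each setting, filled where the adjusted p is under 0.05; the dotted line marks the value of the edgeR fit to all 9 libraries. MYB stays between 0.43 and 0.69 and IKZF2 between -0.60 and -0.38, while GATA3 is at -0.23 in the settings that leave out scrambled replicate 1.

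Genes on the opposite strand can share reads with a factor when strand is ignored. The library kit marks strand, and in the members' own loci 0% to 2.12% of stranded reads lay on the opposite strand. Tested opposite-strand neighbours were GATA3-AS1, LEF1-AS1, SATB1-AS1, AC079610.2 beside IKZF2, AC090152.1 beside TOX, and SKP1, a ubiquitin ligase subunit whose end overlaps TCF7. None passed the edgeR test for both siRNAs (adjusted p 0.507 to 0.991). GATA3-AS1 was at 0.626 to 0.754 CPM with s46, 0.487 to 0.798 CPM with s47 and 0.472 to 1.08 CPM with scrambled siRNA, and its highest value was in scrambled replicate 1, as for GATA3. The antisense gene AL109767.1 of BCL11B had 60 reads in all libraries, MYB-AS1 had 8, and AC009970.1 within BCL11A had 0.

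Related gene lists were read the same way, by their counts. Among the 13 paralogs of the factors, 8 were tested, 0 passed for both siRNAs (0.566% of all tested genes did), and the median of their log2 fold changes was -0.22, where that of all tested genes was -0.03. TOX4, a relative of TOX, had 88.7 to 99.5 CPM with s46, 90.9 to 99.2 CPM with s47 and 74.9 to 97.3 CPM with scrambled siRNA, and its groups overlapped (log2 fold change 0.12 ± 0.11 SE). Of 30 other transcription factors of T-cell development, 26 were tested and 1 passed (0.566% of all tested genes did), MAF, which directs cytokine genes in helper T cells. MAF fell to 7.21, 9.07 and 9.74 CPM with s46 and to 7.04, 10.3 and 7.02 CPM with s47, against 14.2, 17.97 and 16.5 CPM with scrambled siRNA (log2 fold change -0.95 ± 0.16 SE, edgeR adjusted p 0.0217). Its siRNA and scrambled values did not overlap, but the call was lost when any of 5 libraries was left out (s46 replicates 1 and 2, s47 replicates 1 and 3, or scrambled replicate 3; adjusted p 0.0524 to 0.11, where all its alternatives gave 1.93e-05 to 0.11). The median of that list was -0.01. By level per kilobase its leading members were SOX4 (0.20 ± 0.15 SE), ETS1 (-0.19 ± 0.10) and ETS2 (0.24 ± 0.13), and none of these log2 fold changes passed (edgeR adjusted p 0.474, 0.307 and 0.344).

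Progenitor genes that are silenced at commitment were mostly at or near 0 reads. LMO2, HOXA9, ERG, TAL1 and KIT had 0 reads in every library. Of the others not tested, FLT3 had the most, 38 reads over all libraries. Only LYL1 of 14 was tested, at 3.97 to 5.25 CPM with s46, 5.02 to 5.54 CPM with s47 and 3.98 to 5.42 CPM with scrambled siRNA, and it did not pass (log2 fold change 0.03 ± 0.18 SE, edgeR adjusted p 0.937). Of 17 cofactors, 16 were tested and 0 passed (0.566% of all tested genes did), with a median of -0.08. At an unadjusted edgeR p under 0.05, 1 was higher (MTA3) and 5 were lower (GATAD2B, ZFPM1, TLE3, CREBBP and EP300), against 17.8% of all tested genes. Each of the 5 had its highest value in scrambled replicate 1. The most abundant cofactors per kilobase were HDAC1 (0.10 ± 0.11 SE), RBBP4 (-0.0007 ± 0.11) and MTA2 (0.04 ± 0.10), with edgeR adjusted p of 0.619, 0.997 and 0.85. These are subunits of the NuRD complex that BCL11B and Ikaros proteins recruit.

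Of 24 T-lineage genes on which these factors act, 23 were tested, 2 rose and 0 fell, with a median of 0.09, where 0.566% of all tested genes passed in either direction. IL7R, the interleukin-7 receptor chain, had 23.6, 21.3 and 26.2 CPM with s46, 20.8, 24.0 and 30.3 CPM with s47, and 9.14, 8.80 and 7.23 CPM with scrambled siRNA (log2 fold change 1.54 ± 0.16 SE, edgeR adjusted p 0.000842). DNTT, the terminal transferase that adds bases at receptor gene joints, had 29.9, 16.5 and 23.8 CPM with s46, 36.0, 21.8 and 32.9 CPM with s47, and 11.6, 7.82 and 10.02 CPM with scrambled siRNA (1.44 ± 0.22 SE, edgeR adjusted p 0.0118). Both genes had every siRNA library above every scrambled library, and DNTT lost its call without scrambled replicate 3 (edgeR adjusted p 0.0669, with a range of 1.18e-15 to 0.0669 over its alternatives). The T-cell receptor genes CD3D (0.37 ± 0.12 SE) and TRBC2 (0.27 ± 0.15) and the kinase LCK (0.09 ± 0.10) led this list by level per kilobase and did not pass (edgeR adjusted p 0.208, 0.344 and 0.627).

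The 3′ UTRs of the factors were searched for 3 short words that had been picked in an earlier analysis of these libraries. Their occurrence is a description, and no association of these words with the siRNAs was tested here. In the principal transcripts of GENCODE 29, GCAGTAC was present in the 3′ UTR of 4.48% of 11039 tested protein-coding genes, CAGTACA, which overlaps it by all but its ends, in 7.77%, and AATCACT in 13.6%. The sites below, with the word in capitals, lie in the 3′ UTRs of BCL11B (chr14:99173948-99173977, minus strand), IKZF1 (chr7:50404205-50404234, plus strand) and IKZF2 (chr2:213007049-213007078, minus strand) on GRCh38.
BCL11B: ggttgattaagGCAGTACaaattgtggagc
IKZF1: tctgttgtatcCAGTACAgctttaggtctt
IKZF2: atgctttgaaaAATCACTtgattcataaag
Of the tested factors, BCL11B (log2 fold change for both siRNAs 0.21) held both GCAGTAC and CAGTACA, and IKZF1 (-0.06) held CAGTACA. Their 3′ UTRs are long, with 4864 and 4474 bases, where the median of those protein-coding genes was 1058. No tested factor passed the edgeR test for both siRNAs, with or without a word, so the calls cannot bear on the words. MYB had neither word in its principal 3′ UTR, and GCAGTAC was found only in that of an alternative transcript. AATCACT was in IKZF1, IKZF2, LEF1, TCF7 and TOX, and not in BCL11B, GATA3, MYB or SATB1. The 3′ UTRs that held it had 1213 (LEF1) to 4474 bases (IKZF1), all above that median. Those of BCL11B, MYB and SATB1, without it, were above the median too. No tested factor passed the edgeR test of s46 against s47, so those calls cannot bear on this word either.

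Markers of B cells, myeloid cells and erythroid cells were low or at 0, while the natural killer marker NKG7 was not. Natural killer and innate lymphoid markers, 4 of 9 tested, summed to 110 to 154 CPM with s46, 117 to 139 CPM with s47 and 165 to 188 CPM with scrambled siRNA, nearly all of it NKG7 (104.8 to 146.4, 108.5 to 131.9 and 155.5 to 180.3 CPM), and KLRF1 was at 0 in every library. B-cell markers, 3 of 7 tested, summed to 11.02 to 12.6 CPM with s46, 13.1 to 15.3 CPM with s47 and 11.1 to 13.8 CPM with scrambled siRNA. Myeloid markers, 1 of 8 tested, summed to 0.0763 to 0.513, 0.499 to 0.541 and 0.257 to 0.627 CPM in the s46, s47 and scrambled libraries, with CEBPA and CD33 at 0. Erythroid and megakaryocyte markers, 0 of 6 tested, summed to at most 0.359 CPM, with HBA1 and PF4 at 0. The natural killer sum moved with IKZF2 and against MYB between the groups, and its part in their values was not tested.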

How the data were processed

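Total RNA of 9 libraries was measured. For each library the authors deposited raw counts of reads per gene, one column ignoring strand and one for each strand. The genome was GRCh38, per the submitters' processing notes, and neither the aligner nor the annotation is given in the sources used here. The libraries were depleted of ribosomal RNA and stranded, per the labels' protocols. The sense counts were used. Lines that name no gene were left out: unmapped (4.52% to 6.70% of reads), multimapping (6.36% to 14.4%), outside genes (23.0% to 35.9%) and ambiguous (3.88% to 6.95%), so genes with near-identical copies may be undercounted. Of 58096 IDs, 53747 matched GENCODE 29 with their version, 3745 without it (BCL11A, IKZF1 and GATA3 among them) and 604 did not.

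Low genes were removed by filterByExpr (minimum count 10), TMM factors were computed, and edgeR 4.0.16 under R 4.3.3 gave robust quasi-likelihood F tests from a single model of group over all 9 libraries; Benjamini-Hochberg adjustment ran over 16072 genes, threshold 0.05. SE were derived from F. Alternatives were library totals, upper-quartile scaling, DESeq2 1.42.0, limma-voom (limma 3.58.1), no filter, a filter at 1 CPM in 3 libraries, unstranded counts, a replicate block, only the groups compared, and libraries left out. Word searches used Python 3.11.15. The text names all 10 factors, opposite-strand genes that overlap a factor or start within 5000 bases of its start, called members of each list and its 3 most abundant, and the 3 genes most like the factor of smallest p. The factors and lists were chosen with earlier results of these data known.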

Additional observations from a re-analysis of the deposited data

How the results depend on the processing

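The count of commitment factors called for both siRNAs against scrambled, 0 of 9, was 3 with DESeq2, 1 with limma-voom, 3 without a filter on low counts and 2 with a replicate block (MYB and IKZF2), and 0 to 3 when each library was left out: 2 (MYB and IKZF2) without scrambled replicate 1, 3 (with GATA3) without scrambled replicate 2 and 0 without any other. For s46 against scrambled it was 1 with DESeq2 (MYB) and 2 without a filter (MYB and GATA3), where 1.24% and 1.23% of all genes were called. For s47 it was 1 and 2 in the same way (1.27% and 1.38% of all genes). It was 0 to 1 for s47 when libraries were left out, the 1 being MYB without scrambled replicate 2 (1.68% of all genes). The causes were not tested. The block changed no other call of a factor. Calls over all genes for both siRNAs, 91 (0.566%), were 457 (2.84%) with DESeq2, 98 (0.61%) with limma-voom, 876 (2.8%) without a filter and 222 (1.38%) with the block. They were 109 (0.666%) without scrambled replicate 1, 1650 (10.1%) without scrambled replicate 2 and 22 (0.134%) without scrambled replicate 3. Replicate numbers pair s46 with scrambled (correlation of same-numbered deviations from group means 0.199 to 0.314) and s46 with s47 (0.348 to 0.436) by the rule that every pair is over 0.1, but not s47 with scrambled (-0.03 to 0.298); differently numbered libraries were at -0.314 to 0.17, and 9 of 9 libraries correlated best with their own number.

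In 42 instances, none of them called, a log2 fold change near 0 turned its sign. With library totals TCF7 was at -0.024 for both siRNAs, -0.046 for s46 and -0.0022 for s47, and with upper-quartile scaling at -0.021 for s46. IKZF1 with s47 was at 0.0020 with unstranded counts and 0.0083 without the libraries of number 1. In s46 against s47, BCL11B was at 0.0042 with library totals, 0.0076 with limma-voom, 0.0024 with the 1 CPM filter and 0.0028 with the replicate block, and without the libraries of number 1 LEF1 was at 0.011 and SATB1 at 0.022. Leaving out each library in turn gave TCF7 -0.094 to 0.31 for both siRNAs, -0.12 to 0.29 for s46 and -0.070 to 0.34 for s47, SATB1 -0.18 to 0.035, -0.23 to 0.031 and -0.17 to 0.039, and IKZF1 -0.099 to 0.023, -0.11 to 0.0094 and -0.085 to 0.037. For s46 against s47 it gave BCL11B -0.097 to 0.088, GATA3 -0.18 to 0.025, TCF7 -0.10 to 0.029, LEF1 -0.077 to 0.012, TOX -0.044 to 0.043, SATB1 -0.14 to 0.072, IKZF1 -0.063 to 0.0025 and IKZF2 -0.053 to 0.13. BCL11A had too few reads in the fit with the filter, and its 29 reads limit what can be said of it.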
